A study of Mus musculus with 8 samples.

Results

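The genes described here are heat shock proteins, most of them cytosolic or mitochondrial, with J-domain co-chaperones, the BAG co-chaperones and the heat shock transcription factors Hsf1 and Hsf2, as measured by bulk RNA sequencing of mouse neutrophils. They were chosen by gene symbol. Rows starting with Hsp and then a digit or a, b, e or h, rows named Hsf1 or Hsf2, rows starting with Dnaja, Dnajb or Dnajc and a number, and rows Bag1 to Bag6 gave 72 symbols. The 5 endoplasmic reticulum genes Hspa5, Hsp90b1, Dnajb9, Dnajb11 and Dnajc3 were left out by name, but others of that compartment, such as Dnajc10, remain. Of the remaining 67, 62 had at least 10 counts in at least 3 libraries and are the members, out of 18187 rows in the table. The 5 below that minimum were Bag3, Dnajb7, Dnajc27, Hspa1l and Hspb8. All 62 members also passed the filter of the test, but Hspb2 reached 10 counts in 3 IgG libraries alone and so entered through the group in which it was higher. The symbols of 4 members, such as Dnajb6-ps, mark pseudogenes or related sequences.

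The series asks how T cell immunotherapy acts on neutrophils in tumours. One group of 3 libraries (replicates 1, 2 and 3) carries the treatment label aOX40, and the other group of 5 libraries (replicates 2 to 6) carries the label IgG. OX40 (the product of Tnfrsf4) is a TNF receptor family member that costimulates T cells, and the labels give no clone, dose or time for either treatment. Both groups share the cell type label neutrophils and the cell line label B16, a mouse melanoma line grown as a tumour. The strain, genotype and age of the mice and the way the cells were isolated are not stated in the labels. The labels also do not say whether each library came from its own animal, so the p-values rest on a spread between libraries that could be partly technical. In these bulk libraries fewer cells of a type and less RNA per cell cannot be told apart.

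Heat shock proteins bind unfolded or partly folded proteins and use ATP to let them fold. HSP70 takes its substrates from J-domain proteins, which speed its ATP hydrolysis, and releases them when an HSP110 or a BAG protein exchanges its nucleotide, and HSP90 acts later on kinases, receptors and other clients. When unfolded proteins accumulate, the transcription factor HSF1 forms trimers and binds inverted repeats of the letters GAA, called heat shock elements, in front of inducible chaperone genes, while sister genes such as Hspa8 and Hsp90ab1 are made at all times.

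The libraries held 52.7 to 73.5 M counts (M, mega), and the aOX40 libraries were deeper without overlap (71.1 ± 2.06 M, SD, n = 3, against 58.9 ± 5.02 M, n = 5). All 15 neutrophil markers in the list used were present, and their summed level lay between 22770.0 and 33400.0 CPM in every library (CPM, counts per M after TMM scaling). Of these markers Mmp8 (1.19, adjusted p = 0.0443), Mmp9 (1.28, 0.0467) and Cd177 (1.34, 0.0414) were higher in aOX40 in edgeR, and G0s2 was lower without overlap (-0.87, 0.0953, not called). In edgeR's quasi-likelihood test 750 of 13278 genes passed an adjusted p of 0.05, which is 5.65% of the genes tested. These were 351 higher (2.64%) and 399 lower (3%) in aOX40, and the median log2 fold change of all tested genes was 0.05. The count of calls was 0 without aOX40 replicate 2, 59 without aOX40 replicate 3, 497 without IgG replicate 3 and 475 without IgG replicate 6. It was 320 with the older variance estimate of edgeR and 1457 with DESeq2.

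Among the 62 members, 2 fell and 1 rose in aOX40. Hsp90aa1, the stress-inducible cytosolic HSP90, fell by 1.29 on the log2 scale, and Hspa1b, an inducible HSP70, fell by 1.63. The J-domain gene Dnajb5 rose by 2.85 at a low level. The 3 called members are 4.84% of the members, near the 5.65% called among all genes, and the unadjusted p was below 0.05 for 16 members (25.8%), against 24.8% of all genes. The groups did not overlap for 4 members, which were all lower in aOX40 (6.45%, against 7.75% of all genes lower without overlap). These were Hsp90aa1, Hspa1b, Hspbap1 and Dnajb6. Higher without overlap were 0 members, where 8.22% of all genes were. Fitted changes were above 0 for 38 members and below 0 for 24 (61.3% above, against 52.2% of all genes), with a median of 0.13. The count of called members was 1 without aOX40 replicate 1 and 0 without aOX40 replicate 2 or 3. It was 5 with DESeq2 (0 higher, 5 lower), 6 with limma voom (3 higher, 3 lower) and 1 with the older edgeR estimate.

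**Figure D1:**
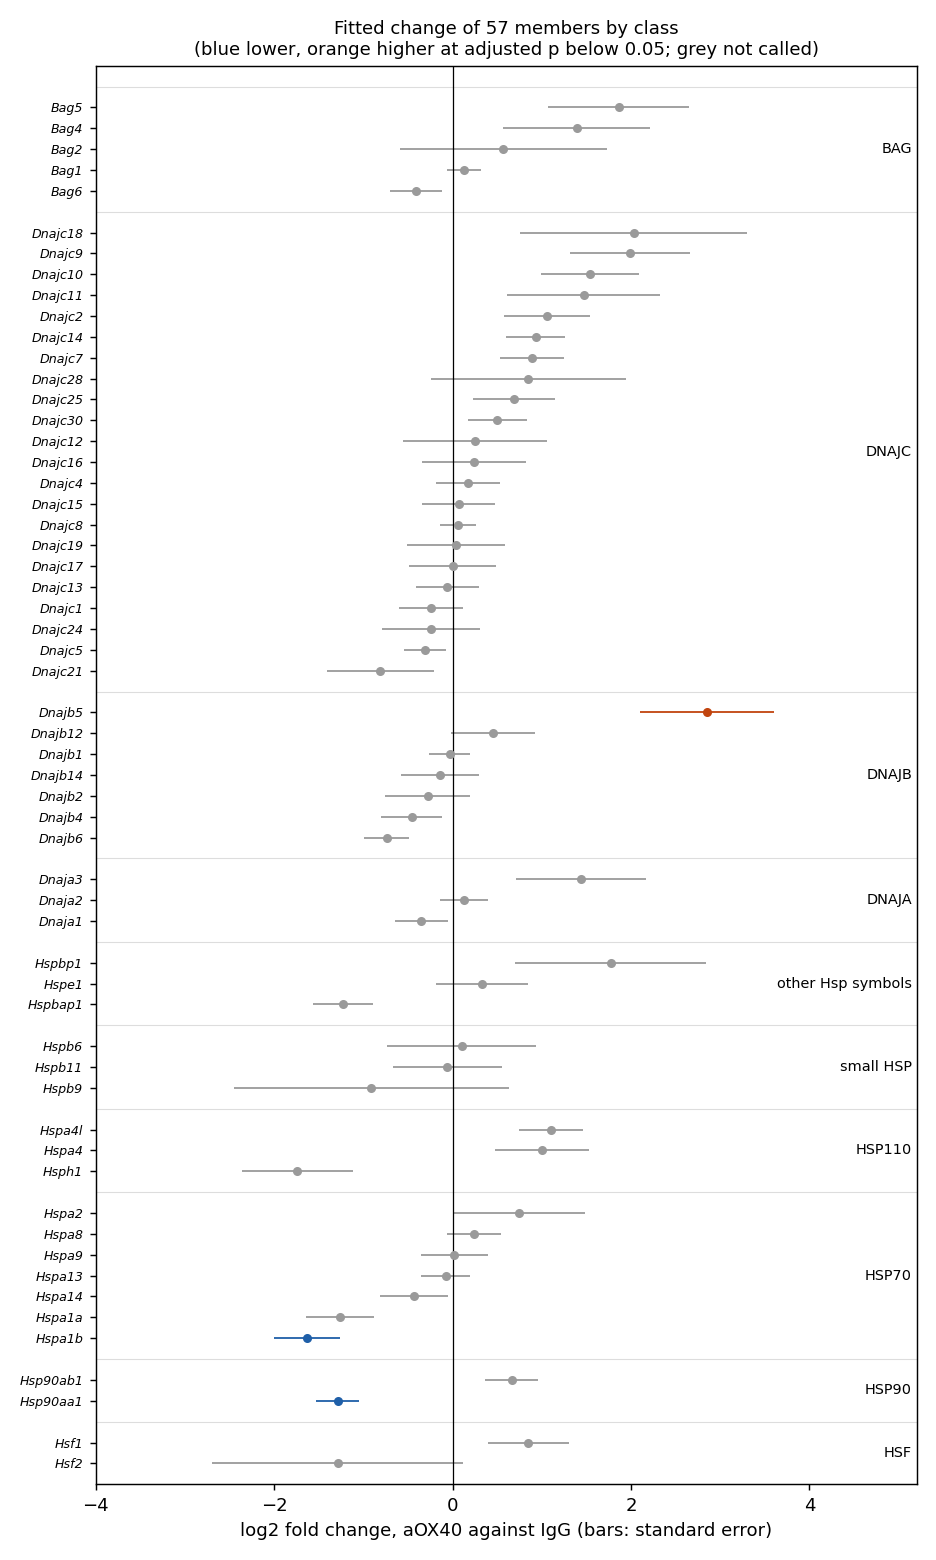
Fitted log2 fold change of aOX40 against IgG (x axis) for 57 members, grouped by class, with bars of 1 standard error; the 4 pseudogene or related-sequence symbols are not drawn, nor is Hspb2, for which every aOX40 library had 0 counts. Hsp90aa1 at -1.29 and Hspa1b at -1.63 are the blue points, Dnajb5 at 2.85 is the orange point, and the grey members did not pass an adjusted p of 0.05.

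The members covered a wide range of levels. Over all libraries 8 had a mean of at least 100 CPM, 26 of at least 10 CPM and 9 under 1 CPM, and together they summed to between 1886 and 4178 CPM per library. Divided by the length of the longest transcript, Hspa1b and Hspa1a were highest at 205.5 and 185.8 CPM per kilobase, less far apart than the spread of either gene over libraries. Hsp90aa1 followed at 115.8, Hspa8 at 64.6, Dnajb6 at 51.1 and Bag1 at 50.5 CPM per kilobase. Libraries spread more widely at low levels. The median coefficient of variation within IgG was 29.8% for members at 10 CPM or more and 53.2% for those between 1 and 10 CPM.

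The fitted values of the 2 cytosolic HSP90 genes lay on opposite sides of 0. Hsp90aa1 (ENSMUSG00000021270.13; GRCm38, chr12:110690605-110702728, minus strand) had 282.2, 156.7 and 158.9 CPM in aOX40 replicates 1, 2 and 3, and 518.8, 429.9, 447.7, 536.2 and 508.6 CPM in IgG replicates 2 to 6. All 3 aOX40 libraries lay under every IgG library, and the IgG libraries were close together (488 ± 46.6 CPM, SD, n = 5, against 199 ± 71.8, n = 3). The log2 fold change was -1.29 (SE 0.24) with an edgeR adjusted p of 0.0182. It was called in 17 of 20 alternatives, in which it ranged from -1.62 to -1.01. The adjusted p in edgeR was 0.115 without aOX40 replicate 2 and 0.0793 without aOX40 replicate 3.

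Reads of Hsp90aa1 could be divided with near copies. The gene models Gm12346 and Gm5844 match its longest transcript at 99.5% and 98.5% identity over 68.7% and 67.1% of its length. Their rows gave log2 fold changes of -1.12 and -1.25, with edgeR adjusted p of 0.0175 and 0.0250, so all 3 rows were lower and may share reads.

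Hsp90ab1, the constitutive sister gene, did not pass the test. It had 48.3, 87.6 and 87.1 CPM in aOX40 and 25.9, 58.4, 40.8, 55.7 and 54.3 CPM in IgG. The high aOX40 values were those of replicates 2 and 3, and replicate 1 lay among the IgG libraries. Its fitted log2 difference was 0.66 (SE 0.30, edgeR adjusted p = 0.201).

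The inducible HSP70 genes Hspa1a and Hspa1b are near copies that lie side by side on chromosome 17 (GRCm38, chr17:34969190-34972156 and chr17:34956436-34959238, both on the minus strand, each a single annotated stretch with no intron). Their transcripts match at 99.2% identity over 74.2% of Hspa1a and 78.5% of Hspa1b, so the division of reads between both rows is uncertain. The 250 bases upstream of their starts, from the RefSeq promoter table on GRCm38.p6, are shown because they are almost the same as well. Capitals mark a pair of heat shock element units, GAANNTTC. The windows are Hspa1a at chr17:34972157-34972406 and Hspa1b at chr17:34959239-34959488, read 5′ to 3′ on the minus strand.
Hspa1a: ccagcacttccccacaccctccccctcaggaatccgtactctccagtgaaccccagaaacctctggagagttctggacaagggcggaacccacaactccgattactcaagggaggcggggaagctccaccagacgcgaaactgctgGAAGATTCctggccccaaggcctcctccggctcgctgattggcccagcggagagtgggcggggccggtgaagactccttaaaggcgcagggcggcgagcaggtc
Hspa1b: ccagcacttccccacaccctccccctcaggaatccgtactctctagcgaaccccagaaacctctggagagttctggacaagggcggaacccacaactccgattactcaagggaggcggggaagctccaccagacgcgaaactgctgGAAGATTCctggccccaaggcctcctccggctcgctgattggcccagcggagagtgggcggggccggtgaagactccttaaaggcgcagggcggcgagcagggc
They differed at 3 of 250 positions (98.8% identity). Counted from 1 at the 5′ end with the Hspa1a base first, the differences are C44T, T47C and T249G. Both windows hold the GAANNTTC pair 104 bases upstream of the start.

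Hspa1b had 197.5, 174.6 and 377.2 CPM in aOX40 and 1057, 646.3, 1067, 415.6 and 673.3 CPM in IgG. The groups did not overlap, although the highest aOX40 library, replicate 3, came close to the lowest IgG library, replicate 5. The log2 fold change was -1.63 (SE 0.37, edgeR adjusted p = 0.0330), and 12 of 19 alternatives called it, with values from -2.05 to -1.33. The call did not hold without aOX40 replicate 1 (edgeR adjusted p = 0.0866), replicate 2 (0.163) or replicate 3 (0.0531), or without IgG replicate 2 (0.0514) or 4 (0.0524). With the older edgeR estimate the adjusted p was 0.066.

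Hspa1a had 188.1, 226.7 and 468.6 CPM in aOX40 and 865.1, 558.9, 1060 and 661.2 CPM in IgG replicates 2, 3, 4 and 6, but 382 CPM in IgG replicate 5. Replicate 3 of aOX40 therefore lay above 1 IgG library. The log2 fold change was -1.26 (SE 0.38) and missed the threshold (edgeR adjusted p = 0.0761). With both rows added before the fit, the pair had 385.6, 401.3 and 845.8 CPM in aOX40 and 1922, 1205, 2127, 797.7 and 1334 CPM in IgG. The summed pair gave -1.44 (SE 0.37, edgeR adjusted p = 0.0485), with the groups overlapping at the same 2 libraries.

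**Figure D2:**
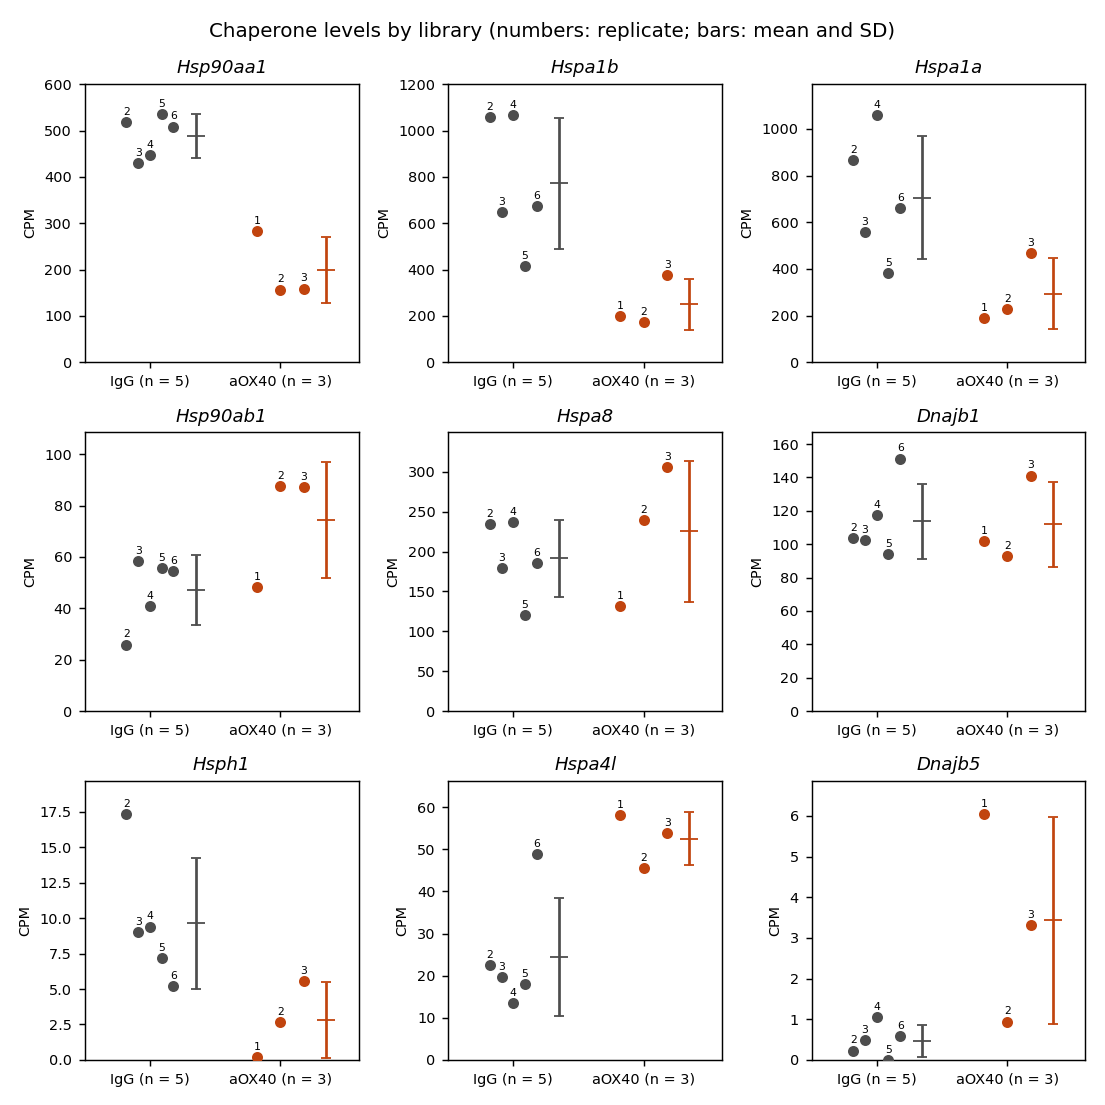
CPM of 9 members in each library (y axes start at 0), with replicate numbers beside the points and bars for mean and SD of IgG (n = 5) and aOX40 (n = 3). Hsp90aa1 and Hspa1b are lower in all 3 aOX40 libraries, at most 282.2 and 377.2 CPM, while Hspa8, Hsp90ab1 and Dnajb1 overlap between the groups.

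Of the 8 HSP70 members, Hspa1b alone was called, and 4 were above 0 and 4 below (median -0.03). Over all genes 5.65% were called and 52.2% were above 0. Hspa8, the constitutive cytosolic HSP70 that also strips clathrin from vesicles, had 131.1, 239.1 and 306.2 CPM in aOX40 and 234.7, 179.2, 236.7, 120.5 and 185.7 CPM in IgG. Both groups spanned much the same range, and the log2 fold change was 0.24 (SE 0.30, edgeR adjusted p = 0.666). Hspa9, the HSP70 of mitochondria, gave 0.02 (SE 0.38, adjusted p = 0.983), from 11.8 to 41.2 CPM in aOX40 and 21.2 to 39.0 CPM in IgG. Hspa2, best known from the testis, gave 0.74 (SE 0.74, adjusted p = 0.580), and its highest value of 10.3 CPM stood in aOX40 replicate 3.

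The HSP110 genes, whose products release nucleotide from HSP70, had fitted values on both sides of 0 and none was called. Hsph1, the stress-inducible member, had 0.215, 2.65 and 5.56 CPM in aOX40 and 17.3, 9.01, 9.40, 7.18 and 5.19 CPM in IgG. The groups met where aOX40 replicate 3 lay above IgG replicate 6. On the log2 scale the difference was -1.74 (SE 0.62, edgeR adjusted p = 0.118). Hspa4 had 9.78, 41.2 and 60.7 CPM in aOX40 and 8.66, 25.5, 32.5, 13.9 and 12.9 CPM in IgG, with aOX40 replicate 1 near the bottom of the IgG range. Its change was 1.00 (SE 0.53, adjusted p = 0.274). Hspa4l had 58.0, 45.6 and 53.8 CPM in aOX40 and 22.4, 19.6, 13.4 and 18.1 CPM in IgG replicates 2 to 5. IgG replicate 6 stood apart at 48.8 CPM, inside the aOX40 range. With it the change was 1.10 (SE 0.36, adjusted p = 0.0939), and without it 1.51 (adjusted p = 0.0218).

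Shares within a library do not depend on how libraries are scaled, so the inducible form was set against its constitutive relatives by counts. The genes of these shares were chosen with earlier results of the same libraries known, so the shares are a description of the rows above and no test is given. Hsp90aa1 made up 85.4%, 64.2% and 64.6% of the Hsp90aa1 and Hsp90ab1 counts in aOX40, and 95.3%, 88.0%, 91.7%, 90.6% and 90.4% in IgG. Every aOX40 library was under every IgG library (71.4% ± 12.1, SD, n = 3, against 91.2% ± 2.63, n = 5). Hspa1a and Hspa1b together made up 74.6%, 62.7% and 73.4% of their sum with Hspa8 in aOX40, and 89.1%, 87.1%, 90.0%, 86.9% and 87.8% in IgG. These groups did not overlap (70.2% ± 6.59 against 88.2% ± 1.35). Hsph1 made up 2.15%, 6.04% and 8.40% of the Hsph1 and Hspa4 counts in aOX40, and 66.7%, 26.1%, 22.4%, 34.0% and 28.7% in IgG. The groups did not overlap here either (5.53% ± 3.15 against 35.6% ± 17.9), and IgG replicate 2 stood above the other IgG libraries.

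**Figure D3:**
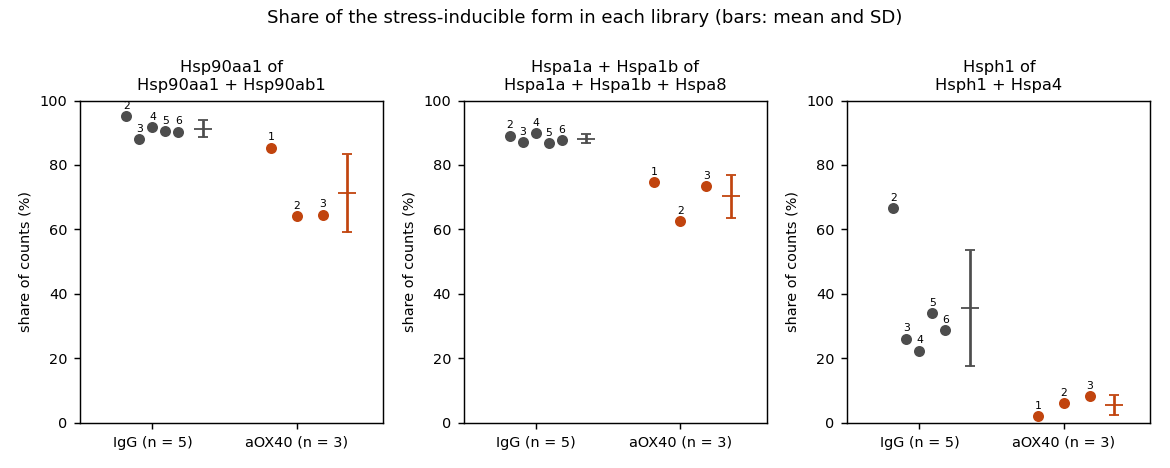
Percent of counts taken by the stress-inducible form among paired cytosolic chaperones in each library (y axes from 0 to 100), with replicate numbers and bars for mean and SD (n = 5 IgG, n = 3 aOX40). In all 3 panels the aOX40 libraries lie below the IgG libraries, with means of 71.4%, 70.2% and 5.53% against 91.2%, 88.2% and 35.6%.

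The heat shock factors themselves were low and were not called. Hsf1, the main activator of the heat shock response, had 11.3, 7.94 and 22.1 CPM in aOX40 and 8.002, 14.5, 6.23, 5.82 and 4.02 CPM in IgG. The groups overlapped, and the log2 fold change was 0.85 (SE 0.45, edgeR adjusted p = 0.270), above 0 while Hsp90aa1 and Hspa1b were below 0. Hsf2 was at 0 in 2 of 3 aOX40 libraries and reached 3.36 CPM in IgG replicate 6, and its value of -1.29 (SE 1.41, adjusted p = 0.613) turned to 0.56 without that library.

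Pairs of heat shock element units were searched in the 250 bases upstream of the start for the 44 members matched in the RefSeq table (GRCm38.p6). Hsp90aa1, Hsp90ab1 and Hspa8 were among the members without a window there, so they were not searched. The motifs were GAANNTTC and TTCNNGAA, each of which reads the same on both strands and which may overlap each other. At least 1 pair was found for 9 members (20.5%), against 12.8% of all 32851 windows of that length and 14.6% of all 27025 symbols. Runs of 3 alternating units, in which both motifs share their middle unit, were found for 2 members (Dnajb6 and Hspe1, 4.5%) and in 0.47% of windows. A match is a description of the letters only. The Hspa1a, Hspa1b and Dnajc10 windows held 0 bases of annotated exons, as did the matching Dnajb4 window. The largest overlap with an annotated exon was 250 bases for Dnajb6, 218 for Dnaja1, 159 for Hspe1, 57 and 40 for Hsph1 and 33 for Hspb6. The Dnajb6, Dnaja1, Dnajb4 and Hspb6 stretches lie inside the annotated gene, the Hsph1 stretch partly so, and the Hspe1 stretch lies inside Hspd1. The stretches around the first match of the other 7 members are shown with the pairs in capitals.
Hsph1 (chr5:149636351-149636380, minus strand): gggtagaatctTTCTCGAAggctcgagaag
Dnajb6 (chr5:29735843-29735872, plus strand): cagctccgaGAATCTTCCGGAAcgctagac
Dnaja1 (chr4:40722333-40722362, plus strand): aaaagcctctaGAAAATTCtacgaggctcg
Dnajb4 (chr3:152193846-152193875, minus strand): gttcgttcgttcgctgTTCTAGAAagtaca
Dnajc10 (chr2:80315273-80315302, plus strand): aacaattttatTTCTAGAAaactttaatta
Hspb6 (chr7:30553170-30553199, plus strand): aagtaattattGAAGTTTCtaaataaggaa
Hspe1 (chr1:55088053-55088082, plus strand): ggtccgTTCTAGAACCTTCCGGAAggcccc
The members with a pair had fitted values on both sides of 0. Hspa1b fell, and the fitted values of Hspa1a (-1.26), Hsph1 (-1.74), Dnajb6 (-0.74), Dnaja1 (-0.35) and Dnajb4 (-0.46) were below 0, while Dnajc10 (1.54), Hspb6 (0.10) and Hspe1 (0.33) were above 0, and none of these 8 was called.

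The J-domain proteins hand substrates to HSP70 and were the largest class, with 34 members, of which 22 were above 0 and 12 below (median 0.13). Dnajb5 was the 1 called among them, where 5.65% of all genes were called and 52.2% were above 0. Dnajb5 (GRCm38, chr4:42949814-42959425, plus strand) belongs to the same subfamily as Dnajb1 and had 6.04, 0.943 and 3.31 CPM in aOX40 and 0.226, 0.482, 1.04, 0 and 0.584 CPM in IgG. These values rest on 449, 84 and 265 counts in aOX40 and 11, 25, 56, 0 and 33 counts in IgG. The groups overlapped, since aOX40 replicate 2 lay under IgG replicate 4. In the fit this was a log2 fold change of 2.85 (SE 0.75, edgeR adjusted p = 0.0388).

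The call of Dnajb5 was the least steady of the 3 and held in 8 of 19 alternatives. Without aOX40 replicate 1, 2 or 3 the edgeR adjusted p was 0.105, 0.0558 and 0.0947. Leaving out IgG replicate 2, 3, 5 or 6 gave 0.0833, 0.0783, 0.0821 and 0.0722. DESeq2 gave an adjusted p of 0.106 and the older edgeR estimate 0.267, with fold changes of 2.85 and 2.87.

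**Figure D4:**
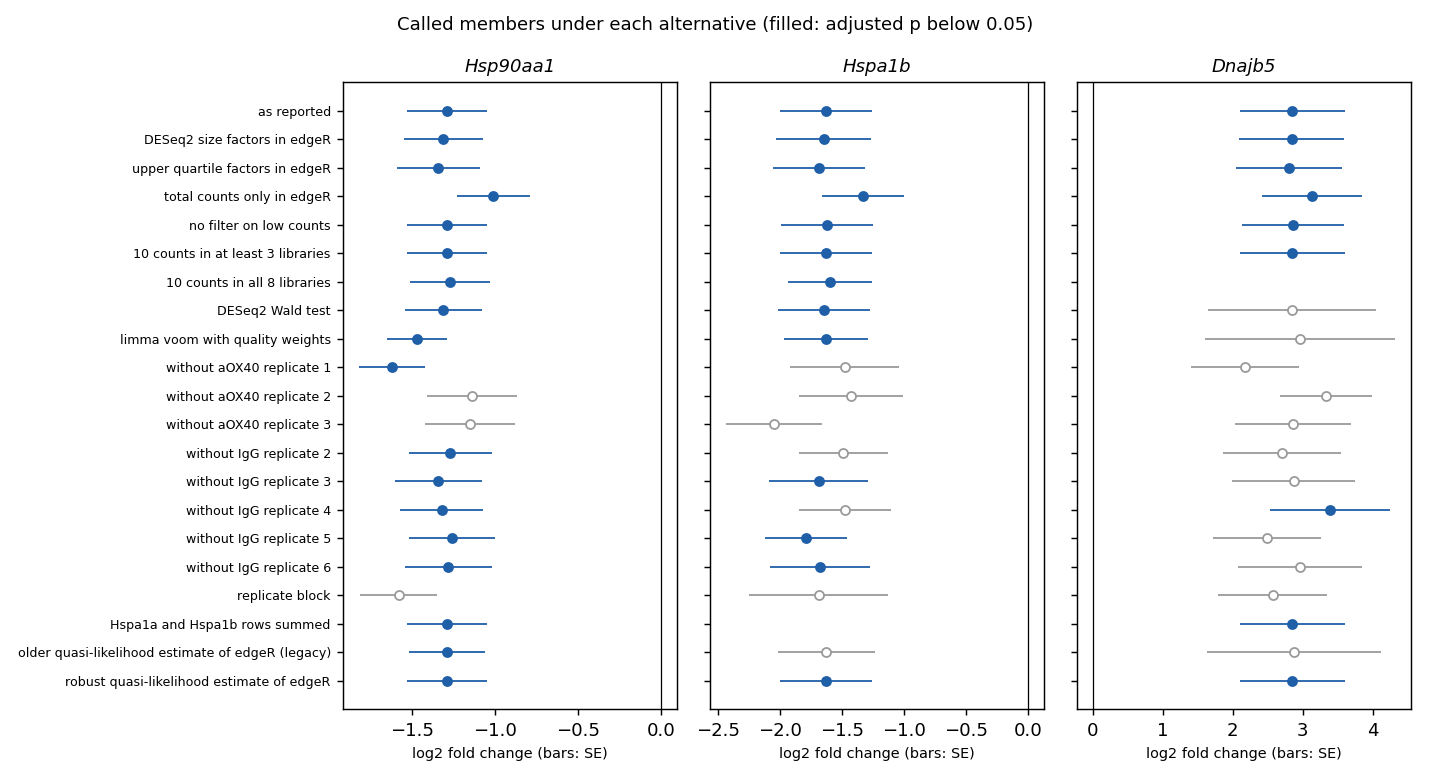
Log2 fold change with standard error (x axes) of the 3 called members as reported and under each alternative; filled points passed an adjusted p of 0.05. All points keep their side of 0, from -1.62 to -1.01 for Hsp90aa1, -2.05 to -1.33 for Hspa1b and 2.18 to 3.39 for Dnajb5, while the call is lost in 3, 7 and 11 alternatives.

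In the DNAJB class 2 of 8 members were above 0 and 6 below (median -0.21), where 52.2% of all genes were above 0. Dnajb6, which keeps aggregation-prone proteins soluble, had 87.8, 97.6 and 129.2 CPM in aOX40 and 169, 133.1, 254.4, 141.6 and 179.2 CPM in IgG. All aOX40 libraries lay under all IgG libraries, by a small gap between aOX40 replicate 3 and IgG replicate 3. The log2 fold change was -0.74 (SE 0.25, edgeR adjusted p = 0.107), and DESeq2 called it (adjusted p = 0.0405). The row Dnajb6-ps gave a like value of -0.76 (SE 0.31, edgeR adjusted p = 0.165), and reads of both rows may not be told apart.

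Dnajb1, the HSP40 that works with inducible HSP70 in refolding and disaggregation, had 101.8, 92.7 and 141 CPM in aOX40 and 103.8, 102.5, 117.2, 94.2 and 151.3 CPM in IgG. These ranges were almost the same, and the change was -0.03 (SE 0.23, edgeR adjusted p = 0.961) with a sign that turned under other settings. Dnajb4, its close relative, gave -0.46 (SE 0.34, adjusted p = 0.438), from 9.74 to 12.9 CPM in aOX40 and 8.43 to 22.5 CPM in IgG.

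Of the 3 DNAJA genes none was called. Dnaja1, a cytosolic partner of HSP70, had 79.2, 77.2 and 123.5 CPM in aOX40 and 64.8, 130.5, 144.5, 102.6 and 153.5 CPM in IgG, with overlap and a fitted change of -0.35 (SE 0.30, edgeR adjusted p = 0.496). Dnaja2 gave 0.13 (SE 0.27, adjusted p = 0.822), and the mitochondrial Dnaja3 gave 1.44 (SE 0.73, adjusted p = 0.249) at a mean of 2.31 CPM. Dnaja1 overlaps Smu1 on the other strand, and whether the counting used strand was not stated in any label.

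The DNAJC class held 23 members with varied tasks, and 0 were called in either direction, where 5.65% of all genes were. Of the 23, 18 were above 0 and 5 below (median 0.24), where 52.2% of all genes were above 0. Dnajc9, which also handles histones, had the highest value among members of this class at 1 CPM or more. It had 2.85, 5.69 and 4.55 CPM in aOX40 and 3.49, 0.965, 0, 0.571 and 0.779 CPM in IgG, where replicate 2 alone reached the aOX40 range. The change was 1.99 (SE 0.67, edgeR adjusted p = 0.0953), and 0.0317 was the lowest adjusted p over its alternatives, without IgG replicate 2. Dnajc7, a co-chaperone that binds both HSP70 and HSP90, gave 0.89 (SE 0.36, adjusted p = 0.158), with 18.2, 37.1 and 18.4 CPM in aOX40 and 8.94 to 19.9 CPM in IgG.

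No abundant DNAJC gene passed the test. Dnajc5, the cysteine string protein of secretory vesicles, had 134.8, 128.9 and 138.9 CPM in aOX40 and 145.2, 140.1, 155.8 and 136.7 CPM in IgG replicates 3 to 6, but 252.2 CPM in IgG replicate 2. Its change was -0.31 (SE 0.24, edgeR adjusted p = 0.457). Dnajc8, found with splicing factors, gave 0.06 (SE 0.20, adjusted p = 0.896). Dnajc21, which acts in ribosome assembly, had the lowest value of the class at -0.81 (SE 0.60, adjusted p = 0.439). The endoplasmic reticulum reductase gene Dnajc10 (1.54, SE 0.55, adjusted p = 0.120) and Dnajc14 (0.93, SE 0.33, adjusted p = 0.119), named after their values were seen, were called with limma voom, as was Hspbp1 (1.77 in edgeR, adjusted p = 0.328). Dnajc14 was also called without IgG replicate 2 and Dnajc10 without IgG replicate 4.

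Among the other Hsp symbols, Hspbap1, named for its binding to the small heat shock protein HSPB1, had 10.8, 18.3 and 27.4 CPM in aOX40 and 64.9, 37.6, 35.9, 35.3 and 48.7 CPM in IgG. The groups did not overlap. The change of -1.23 (SE 0.34) just missed the threshold (edgeR adjusted p = 0.0559), and 4 of 20 alternatives called it. Hspe1, the lid of the mitochondrial chaperonin, gave 0.33 (SE 0.52, adjusted p = 0.737) and overlaps Hspd1 on the other strand.

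Small heat shock proteins hold unfolded proteins without ATP. The 4 members of this class (Hspb2, Hspb6, Hspb9 and Hspb11) were taken by symbol alone, whatever the protein does, and were close to the detection limit. None of the 4 was called, and Hspb6, the highest of them per kilobase, gave 0.10 (SE 0.84, edgeR adjusted p = 0.959) at a mean of 1.01 CPM. Hspb2, named after its values were seen, had 0 counts in all 3 aOX40 libraries, where a floor of 3 counts allows up to 0.0336 to 0.0403 CPM. Its IgG counts were 10, 10.1, 15, 7 and 0. The IgG mean was 4.26 times that floor averaged over the aOX40 libraries, but IgG replicate 6 was at 0 as well. Hspb2 became a member through its IgG counts alone, so this ratio is a description and no support for a change. The median of the class was -0.48 with Hspb2 at its fitted value and with its aOX40 level set at this floor.

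Most BAG proteins release HSP70 substrates by nucleotide exchange. Of the 5 BAG members tested none was called, where 5.65% of all genes were (4 above 0, 1 below, median 0.57). Bag1, the most abundant, had 83.4, 74.1 and 58.1 CPM in aOX40 and 71.0, 66.5, 68.0, 59.7 and 63.3 CPM in IgG, with a change of 0.13 (SE 0.19, edgeR adjusted p = 0.728). Bag5 had 0.632, 6.73 and 7.51 CPM in aOX40 against 0 to 2.63 CPM in IgG (1.86, SE 0.79, adjusted p = 0.174). Bag6, which guards tail-anchored membrane proteins, gave -0.41 (SE 0.29, adjusted p = 0.423). Bag3, a stress-inducible partner of the small heat shock proteins, was under the count minimum with 10 counts in IgG replicate 3, 1 in IgG replicate 5 and 0 in the other libraries.

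Other chaperones and cofactors of the pathway that the symbols do not take were read from a list of 41 genes. Of these 37 were tested, and 3 rose and 0 fell, where 2.64% of all genes rose and 3% fell. Fitted values were above 0 for 30 and below 0 for 7 (81.1% above, against 52.2% of all genes), with a median of 0.50 against 0.05 for all tested genes. Of the 37, 8 were higher and 1 lower in aOX40 without overlap, where 8.22% and 7.75% of all genes were. The 3 that rose were subunits of the cytosolic chaperonin TRiC, the double ring that folds actin and tubulin. Tcp1 had 9.69, 25.0 and 27.5 CPM in aOX40 and 2.48, 7.35, 3.89, 3.80 and 2.09 CPM in IgG (2.41, SE 0.44, edgeR adjusted p = 0.0185). Cct3 had 10.1, 10.8 and 14.2 CPM in aOX40 and 2.26, 3.49, 3.14, 5.32 and 2.66 CPM in IgG (1.77, SE 0.34, adjusted p = 0.021). In both genes every aOX40 library was above every IgG library.

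Cct7 had 21.0, 24.2 and 18.9 CPM in aOX40 and 10.4, 10.4, 4.88, 8.32 and 8.08 CPM in IgG, again without overlap (1.35, SE 0.28, edgeR adjusted p = 0.0251). The other 5 TRiC subunits ranged from 0.88 (Cct4) to 1.48 (Cct6a) and were not called. Tcp1 (with Acat3 and Mrpl18), Cct7 (Pradc1), Cct6a (Psph) and Cct8 (Usp16) overlap other genes on the other strand, while Cct3 does not. Whether the counting used strand was not stated. Grouping the subunits apart from the rest of the list was done after their values were seen, so their counts are a description. Of the 8 subunits 3 were called and 8 were above 0 (median 1.22), where 2.64% of all genes were called higher. All 8 were above 0 under every alternative run. None of the 8 passed without aOX40 replicate 2 or without aOX40 replicate 3, where the adjusted p of Tcp1 was 0.111 and 0.0766. Without IgG replicate 6 the count was 2, with Cct7 at an adjusted p of 0.05.

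**Figure D5:**
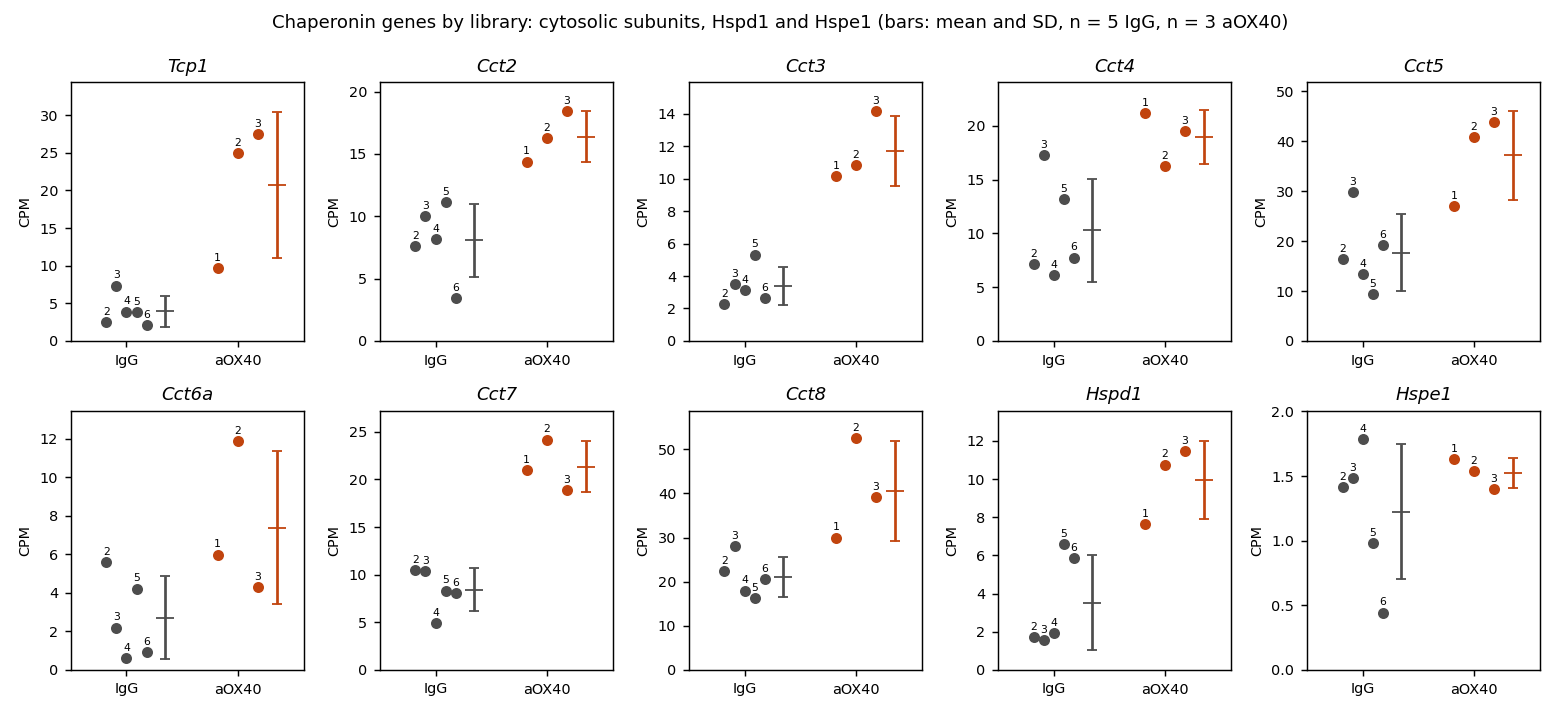
CPM of the 8 TRiC subunits and of the mitochondrial chaperonin genes Hspd1 and Hspe1 in each library (y axes start at 0), with replicate numbers and bars for mean and SD (n = 5 IgG, n = 3 aOX40). Tcp1, Cct2, Cct3, Cct7, Cct8 and Hspd1 do not overlap between the groups, where 8.22% of all tested genes were higher without overlap. Tcp1 reaches 27.5 CPM in aOX40 against at most 7.35 CPM in IgG.

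Hspd1, the mitochondrial chaperonin that works with Hspe1, had 7.63, 10.8 and 11.5 CPM in aOX40 and 1.70, 1.54, 1.94, 6.61 and 5.84 CPM in IgG. The groups did not overlap, and the change was 1.46 (SE 0.46, edgeR adjusted p = 0.0874). Without the TRiC subunits, 0 of 29 partner genes were called, where 5.65% of all genes were. Fitted values of the 29 were above 0 for 22 and below 0 for 7, with a median of 0.35. The highest of the partner genes in mean CPM were Vbp1 of the prefoldin complex (-0.56, edgeR adjusted p = 0.110), the HSP90 cofactor Ptges3 (0.03, adjusted p = 0.948) and the ubiquitin ligase gene Stub1 (0.38, adjusted p = 0.448). Vbp1 was lower in aOX40 without overlap, and DESeq2 (adjusted p = 0.0125) and limma voom (adjusted p = 0.0343) called it. The 5 endoplasmic reticulum genes left out by the rule were mixed, since Dnajb9 fell by 1.00 (edgeR adjusted p = 0.0467) while Dnajb11 (1.21, 0.0552), Dnajc3 (0.69, 0.325), Hspa5 (0.39, 0.344) and Hsp90b1 (0.21, 0.580) were not called.

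Some library measures moved with the groups beside the members. Of 10 such measures, 4 had the smallest possible exact two-sided permutation p of 0.0357 (0.0893 after adjustment over the 10). These were the library total, mitochondrial messenger RNA (0.126% ± 0.0262, n = 3, in aOX40 against 0.0642% ± 0.0115, n = 5, in IgG) and the summed markers of 2 other cell groups. Monocyte and macrophage markers (8 of 10 in the table) summed to 574 to 935 CPM in aOX40 and 1046 to 1474 CPM in IgG, nearly all of it Cd68, which fell by 0.99 (edgeR adjusted p = 0.0362). The other 7 of them summed to 56.6, 69.9 and 101.1 CPM in aOX40 against 8.35 to 35.6 CPM in IgG, with Adgre1 higher (1.81, adjusted p = 0.0248). Fibroblast and endothelial markers (4 of 8 in the table) summed to 4.45 to 8.45 CPM in aOX40 and 8.92 to 59.9 CPM in IgG, and Col1a1 fell by 3.09 without overlap (edgeR adjusted p = 0.0414). Of 19 immediate early genes, which respond to tissue handling, 0 rose and 2 fell (Atf3 and Zfp36), where 3% of all genes fell, with a median of 0.09. Melanoma markers (all 8 in the table) summed to 4.59 to 9.07 CPM in aOX40 and 5.77 to 15.9 CPM in IgG. Sox10 and Tyr were each at 0 in all but 1 library, while Mlana, Mitf and Dct were above 0 in every library. Fitted values were below 0 for Dct (-2.72), Mlana (-1.69) and Tyrp1 (-1.31) and above 0 for Mitf (0.26) and Pmel (0.32). None of these was called in edgeR. T cell markers summed to 1.35 to 19.2 CPM, dendritic cell markers to 0.186 to 6.11 CPM and B cell markers to 0 to 0.861 CPM. The part of these measures in the results on the chaperones was not tested.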

How the data were processed

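Bulk RNA sequencing of mouse neutrophils gave 8 libraries, 3 labelled aOX40 and 5 labelled IgG, grouped by the sample titles. The authors deposited estimated counts per gene symbol, unscaled; 63.4% of values were whole within 0.01, and no label says how reads were divided. Per the submitters' processing notes, STAR 2.6.0, Subread and featureCounts 1.5.1 were used with mm10; no label names the annotation or the strand setting.

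The expected counts deposited by the authors were rounded and filtered with filterByExpr, which left 13278 genes, and scaled with TMM. Groups were compared with the quasi-likelihood F test of edgeR 4.0.16 under R 4.3.3 in a model of group alone, with Benjamini-Hochberg adjustment over all genes tested, at a threshold of 0.05. The newer quasi-likelihood estimate was used. It was chosen over the older one after the calls of both had been seen, because it gave the same number of calls as earlier processing of these data, and the older one is given as an alternative. Standard errors came from the F statistic. Library measures used exact two-sided permutation tests over 56 splits (scipy 1.17.1).

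The members and lists were chosen with earlier results of these data known. Members not named in the text are counted in the class counts. Genes were named if called, if on a list of well-known chaperones (among them Hspb1, not analysed here), or if highest per kilobase or most extreme in log2 fold change in their class at 1 CPM or more; of the partner list, those called and the 3 most abundant. Positions are from GENCODE M21 (GRCm38, which is mm10), and 60 members were placed, 20 of which overlap another gene of the table. Near copies were found with BLAST+ 2.17.0 (95% identity or more, covering 50% or more of the transcript); 5 members have any. The floor of 3 counts covers counting error only, since the reads carry no molecular identifiers.

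The fit was tested on simulated data for 12549 genes, with 200 genes changed and all of these drawn from genes at a mean of at least 10 CPM. It recovered 28%, 96%, 98% and 100% of genes changed 2, 4, 8 and 16-fold, and 6.4% of its calls were unchanged genes. The simulated spread followed the trend over expression level, so genes of like level shared the same spread, and no outlying libraries were simulated. The real data held such libraries for some genes, so these rates apply to the simulated counts only. Alternatives were 3 other scalings, 3 other filters, limma voom (limma 3.58.1) with quality weights, DESeq2 1.42.0, each library left out, the replicate number as a block, Hspa1a and Hspa1b summed, and, added after the data were seen, the older and the robust estimates of edgeR.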

Additional observations from a re-analysis of the deposited data

Results flagged for a closer look

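In 7 of 50 values tested within IgG (n = 5), 1 library lay far from the other 4, by a rule that chance meets in about 1 of 20 groups. Dnajc5 was at 252.2 CPM in IgG replicate 2, against 136.7 to 155.8 CPM in the other IgG libraries. Dnajc9 was at 3.488 CPM in IgG replicate 2, against 0 to 0.965 CPM. The share of Hsph1 in Hsph1 and Hspa4 was 66.69% in IgG replicate 2, against 22.43% to 33.98%. Hspa4l was at 48.79 CPM in IgG replicate 6, against 13.42 to 22.45 CPM. Hsf2 was at 3.365 CPM in IgG replicate 6, against 0 to 0.651 CPM. The summed B cell markers were at 0.425 CPM in IgG replicate 6, against 0 to 0.0979 CPM, and the summed dendritic cell markers at 6.11 CPM in the same library, against 0.186 to 1.501 CPM. IgG replicates 2 and 6 were the only libraries that stood apart in these values.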

How the results depend on the processing

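Hsp90aa1, Hspa1b and Dnajb5 kept their direction in every alternative run. Against 750 calls over all genes, 452 were made with no filter on low counts, 1457 with DESeq2, 1305 with limma voom, 320 with the older edgeR estimate and 0 to 589 with a library left out (0 without aOX40 replicate 2, with 2230 genes at an unadjusted p below 0.05). Against 3 members called, DESeq2 gave 5, limma voom 6, the older estimate 1 and leaving out a library 0 to 4. Against 3 partner genes called, total counts only gave 8, 10 counts in all 8 libraries 5, DESeq2 6, limma voom 8 and leaving out a library 0 to 4. The older estimate of edgeR also ended the calls of Hspa1b (adjusted p = 0.066) and Dnajb5 (0.267). Of 750 calls 46.8% were higher in aOX40, against 78.0% of 1120 with total counts only, where the median over all genes was 0.35, and 34.7% with DESeq2 and 34.1% with the older estimate. The summed fibroblast and endothelial markers differed by -18.8 CPM with total counts only (exact two-sided permutation p = 0.107), and the neutrophil sum turned to 4030.0 CPM higher in aOX40 (exact two-sided permutation p = 0.25). The causes were not tested.

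The titles share only replicate numbers 2 and 3. Deviations of same-numbered libraries from their group means correlated at 0.022 and 0.047, and those of differently numbered libraries at -0.044 to 0.031. Centring within such small groups ties these correlations to each other, so they cannot decide whether same-numbered libraries were paired. With the replicate block 0 genes, 0 members and 0 partner genes were called (2594 genes at an unadjusted p below 0.05), in a fit with fewer residual degrees of freedom. Under the block the log2 fold change of Hsp90aa1 was -1.58, and signs turned for Bag1 (-0.07), Dnaja1 (0.08), Dnajb1 (0.15), Dnajb4 (0.05), Dnajc8 (-0.05) and Ptges3 (-0.04).

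None of the other named genes whose sign turned was called. Dnajb1 turned to 0.27 with total counts only and 0.0 with 10 counts in all 8 libraries, Hspa9 to -0.04 with upper quartile factors and -0.01 with DESeq2, and Ptges3 to -0.02 with upper quartile factors and -0.02 with limma voom. With each library left out in turn, values ranged from -0.22 to 0.10 for Dnajb1, -0.28 to 0.40 for Hspa9, -0.10 to 0.11 for Ptges3, -0.59 to 0.44 for Hspb6, -0.30 to 0.37 for Dnaja2, -0.06 to 0.21 for Dnajc8, -0.60 to 1.14 for Hspa2 and -0.04 to 0.52 for Hspa8. Hsf2 ranged from -8.81 to 0.56, where the lower value is no size of a change because 0 counts remained in aOX40. The effect of depth on the members under 1 CPM was not tested, since the simulated data held no changed genes below 10 CPM.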
